A study of Mus musculus with 53 samples.

Results

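The clustered protocadherins are 57 protein-coding genes that lie in 3 neighbouring arrays on mouse chromosome 18: 14 alpha genes, 22 beta genes and 21 gamma genes. They were taken by symbol from the 55573 genes of the P2 bulk tables and the 57010 genes of the P7 single-cell tables, and every member was found in both. One more symbol matched, Pcdhgb8, and was left out because the annotation calls it a polymorphic pseudogene. The symbol Pcdha11 belongs to 2 Ensembl identifiers in the bulk data. The one that the P7 gene table names Pcdha10 is called Pcdha10 throughout. RefSeq places the alpha members between 36930285 and 37188897 (a span of 259 kb), the beta members between 37264998 and 37521419 (256 kb) and the gamma members between 37661775 and 37841873 (180 kb) of chromosome 18 on GRCm38.p6.

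The study asked what the transcription factors INSM1 and TEAD1/TEAD2 do in the developing mouse cerebellum. At postnatal day 2 (P2), bulk RNA was sequenced from 4 controls (Insm1 fl/fl) and 4 mutants (Atoh1Cre; Insm1 fl/fl) of one line, and from 3 controls (Tead1 fl/fl; Tead2 fl/fl) and 4 mutants (Atoh1Cre; Tead1 fl/fl; Tead2 fl/fl) of the other. At P7, single cells were profiled in 2 controls and 3 mutants of each line, 1 library for each, with library number 1 covering all lobules and numbers 2 and 3 leaving out lobules IX and X. The controls of both lines carry the floxed alleles without Cre, so an effect of the Cre driver alone cannot be told apart from the deletion. Atoh1Cre acts in the Atoh1 lineage, chiefly granule cell progenitors and their neurons. Cells outside that lineage keep the floxed genes and are part of every sample.

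Each clustered protocadherin is a single-pass adhesion protein with cadherin repeats outside the cell that bind the identical isoform on a neighbouring cell. A neuron switches on a small, largely random choice of the variable promoters, and the resulting combination acts as a surface label with which its dendrites and axons tell self from non-self. In the alpha and gamma arrays each variable first exon is spliced to shared constant exons, while each beta gene is a complete coding unit of its own. The C-type members (Pcdhac1, Pcdhac2, Pcdhgc3, Pcdhgc4 and Pcdhgc5) are used more evenly across neurons. CTCF and cohesin loop the alpha promoters to distal enhancers, and DNA methylation together with SMCHD1 keeps unused promoters silent.

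The P2 libraries held 28066726 to 64518819 expected counts and the members took 0.0726% to 0.113% of them. The P7 libraries held 90269989 to 211707202 unique molecular identifiers (UMIs) in 4779 to 10710 kept barcodes, and no barcode was shared between libraries. Counts of Insm1 were 30.8 to 71.9 CPM (counts scaled to a common library size) in the P2 controls of its line and 8.45 to 16.1 in the mutants. Tead2 was at 22.3 to 25.7 CPM in the P2 controls of its line and at 17.4 to 19.5 in mutants 1 to 3. The library labelled Tead1/2 mutant 4 had 25.9 CPM of Tead2, just above the highest control. Tead1 counts did not separate the groups at P2 and give no check of the deletion. A list of 15 skeletal muscle markers summed to 19 to 45 CPM in the P2 controls of both lines and to 171 to 284 CPM in every mutant but that same library, which had 19 CPM. Calls, cluster medians and the named members of the P2 Tead1/2 comparison are therefore also given without the library labelled mutant 4. At P7 the same markers summed to 54.4 to 76.3 UMI CPM (UMIs on the same scale) in controls, 5509 to 6487 in Insm1 mutants and 12410 to 19780 in Tead1/2 mutants. Insm1 was at 56.3 and 58.2 UMI CPM in the P7 controls of its line and at 5.72 to 14.5 in its mutants, and Tead2 at 30.1 and 31.9 against 7.26 to 9.15. Tead1 was at 630 and 631 UMI CPM in its P7 controls and at 1125 to 1312 in the mutants, higher and so against the direction of the label, and it gives no check of the deletion at P7 either.

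The first question was what the counts of a single alpha or gamma gene stand for in each assay. In RefSeq 13 of 14 alpha members and 21 of 21 gamma members end within 50 bases of a common 3′ end, against 1 of 22 beta members. The estimated P2 counts were whole numbers (within 1e-06) for 68.8% of the beta values but for 1.43% of the alpha and 0.317% of the gamma values. A fractional value arises where RSEM divides a read between genes. Among all genes with at least 100 counts 84.5% of values were whole.

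The share of a cluster that a member took differed between the assays in the alpha and gamma arrays. Pcdha10, an alternate alpha isoform, took 4.44% ± 0.74 (SD, n = 15) of the alpha counts at P2 and 75.4% of the alpha UMIs at P7. Among gamma genes Pcdhga10 went from 4.51% of counts to 27.3% of UMIs and Pcdhgb2 from 2.29% to 16.5%, while the C-type Pcdhgc3 went from 28.5% to 10.1%. Ages, assays and gene models differ between these data sets, and which of them moves a share cannot be told apart. Across members, the Spearman rank correlation between P2 and P7 shares was 0.27 for the 14 alpha genes, 0.35 for the 21 gamma genes and 0.92 for the 22 beta genes, as a description of members that share libraries. Ranks among alpha or gamma members at P7 are for that reason not read as promoter choice. Levels are given below as the sum of each cluster, and changes as the change of a member within 1 assay. How P7 UMIs from the shared 3′ exons were assigned to a gene is not given in the sources used here. UMIs counted for Pcdha10 or another alpha or gamma member at P7 may therefore come from other members of its array, and a P7 change of a named alpha or gamma gene is that of the UMIs counted under its name. At P2 few alpha or gamma values were whole, so a P2 change of such a gene is that of an estimate with divided reads. Changes and calls of members of 1 array need not be separate observations in either assay. Counts of members that fell or were called are thus a description.

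**Figure D1:**
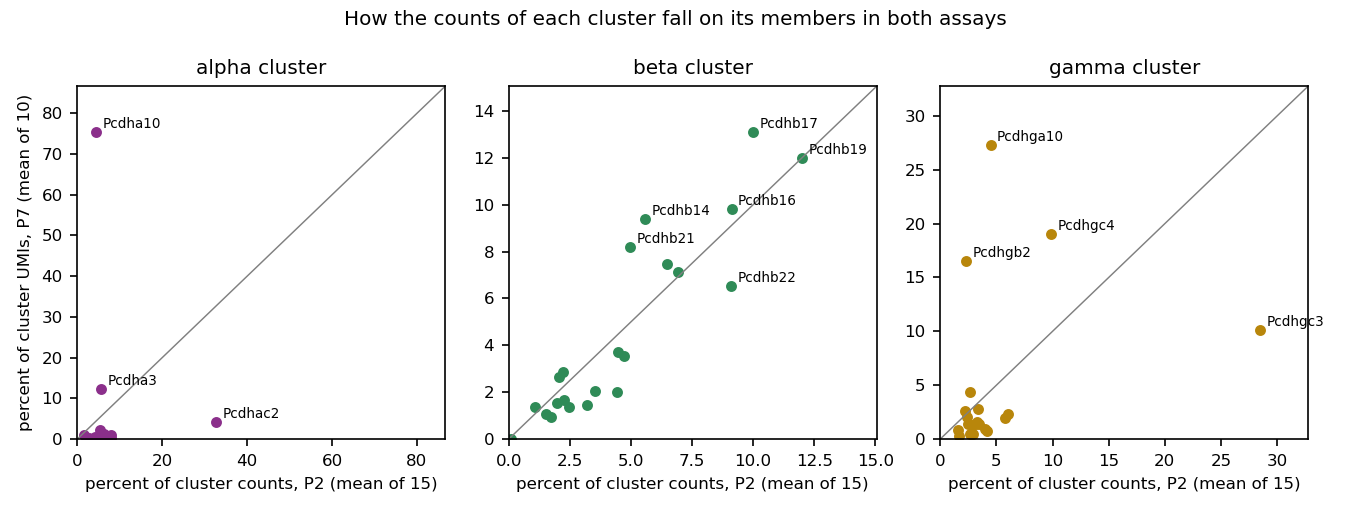
Share of each cluster's counts taken by each member at P2 (x axis, percent, mean of 15 samples) against its share of UMIs at P7 (y axis, percent, mean of 10 libraries), with the grey line marking equal shares. Pcdha10 stands far above the line at 75.4% of alpha UMIs against 4.44% of counts, while the beta members lie along it.

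The beta genes, whose transcripts do not share exons, could be ordered per kilobase of RefSeq gene length at P2. Pcdhb17 was the highest at 5.93 ± 0.42 CPM per kb (SD, n = 15), followed by Pcdhb22 at 5.74 ± 0.46 and Pcdhb19 at 4.90 ± 0.40. The first of these neighbours differed by less than either SD. Pcdhb1 was the lowest at 0.0723 ± 0.027 CPM per kb and was the one member that failed the low-count filter in the P2 and the whole-cerebellum P7 fits, where 56 of the 57 members were tested. Between them the other beta genes ran from 0.758 CPM per kb for Pcdhb2 to 3.94 for Pcdhb20.

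At P2 the summed levels of all 3 clusters overlapped between Insm1 mutants and their controls. Summed alpha counts were 196.5, 174.7, 166.8 and 203.4 CPM in the controls and 130.8, 181.4, 164.9 and 182.7 CPM in the mutants. Mutant 1 was far below the controls and mutant 3 just below the lowest of them, while mutants 2 and 4 lay inside the control range. Beta sums were 187.1 to 193.3 CPM in controls and 188.7 to 210.1 CPM in mutants, and gamma sums were 577.7 to 714.4 against 476.4 to 667.7 CPM, again overlapping and again with mutant 1 lowest for gamma.

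None of the 56 members tested was called in this comparison (edgeR quasi-likelihood test, Benjamini-Hochberg adjusted p under 0.05 over all genes), where 0.689% of the 19582 genes tested were called. DESeq2 also called 0 members, and 4 members were under an unadjusted p of 0.05, as were 1763 of all genes. All 14 alpha members had a negative log2 change with a median of −0.19, 15 of 21 tested beta members had a positive one with a median of 0.06, and 16 of 21 gamma members a negative one with a median of −0.11. The median over all genes was 0.01, and 48.5% of genes had a negative change. Summed levels of 9 granule neuron markers were 715 to 861 CPM in these controls and 630 to 705.5 in the mutants. For 8 granule progenitor markers they were 1513 to 1704 and 1235 to 1365 CPM. Their part was not tested.

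The alpha members with the smallest p values were Pcdha3 and Pcdha4, both alternate isoforms. Pcdha3 stood at 12.2, 11.5, 9.1 and 11.7 CPM in controls and at 8.08, 8.68, 9.36 and 9.11 CPM in Insm1 mutants. The mutants lay low, but control 3 was among them (log2 change −0.33 ± 0.10 SE, edgeR adjusted p = 0.31). Pcdha4 had a log2 change of −0.37 ± 0.13 (edgeR adjusted p = 0.427). In the beta cluster Pcdhb7 had the smallest p, at 7.58 to 8.62 CPM in controls and 8.61 to 10.4 CPM in mutants, so that mutant 4 touched the control range (log2 change 0.23 ± 0.09, edgeR adjusted p = 0.471). For Pcdhb22 the change was 0.13 ± 0.07 (edgeR adjusted p = 0.602).

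Among the C-type members, Pcdhac2, the alpha member with the largest counts (an isoform of serotonergic and other projecting neurons), was at 65.4, 57.6, 54.5 and 63.1 CPM in controls and at 44.1, 63.5, 55.5 and 58.1 CPM in mutants. Only mutant 1 was below the controls (log2 change −0.12 ± 0.11, edgeR adjusted p = 0.765). Pcdhgc3 was at 168.6 to 227.3 CPM in controls and 141.8 to 193.6 CPM in mutants (log2 change −0.22 ± 0.12, edgeR adjusted p = 0.624), and Pcdhga11, the other gamma gene with a small p, had a change of −0.22 ± 0.11 (edgeR adjusted p = 0.569). Pcdhgc4, the gamma isoform tied to interneuron survival, was at a log2 change of −0.05 ± 0.10 (edgeR adjusted p = 0.913), with Pcdhac1 at −0.03 ± 0.16 (edgeR adjusted p = 0.969) and Pcdhgc5 at −0.08 ± 0.24 (edgeR adjusted p = 0.943). The sign of Pcdhac1 and Pcdhgc5 turned on leaving out control 1, control 4 or mutant 1, and that of Pcdhgc4 on leaving out mutant 1.

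In the Tead1/2 line at P2 the mutant means were lower for all 3 clusters, and the alpha and beta sums did not overlap the controls. Alpha sums were 151.1, 169.9 and 148.6 CPM in controls and 122.6, 110.9, 141.2 and 138.8 CPM in mutants. Every mutant lay below every control. Beta sums were 204.1, 206.6 and 207.4 CPM in controls and 175.9, 171.7, 185.3 and 196 CPM in mutants, with the library labelled mutant 4 nearest to the controls and again no overlap. Gamma sums were 513.3, 543.1 and 465 CPM against 448.6, 467.8, 508.4 and 462.2 CPM, and here the groups overlapped.

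No member was called, and no gene at all was called among the 20247 tested (0%). Under an unadjusted p of 0.05 there were 22 members (8 alpha, 7 beta, 7 gamma) where 20.0% of all genes passed, and DESeq2 called 5 of 56 members, all lower, where it called 5.87% of 17123 genes and 1.78% lower. Log2 changes were negative for 14 of 14 alpha members (median −0.34), 20 of 21 tested beta members (median −0.20) and 19 of 21 gamma members (median −0.18), against a median of −0.01 and 51.8% negative over all genes. Every mutant lay below every control for 4 alpha, 9 beta and 5 gamma members, where 6.56% of genes averaging 1 CPM or more did so. Without the library labelled mutant 4, 3 members were called, all lower, where 3.19% of 20234 genes were called and 1.22% lower. The medians were then −0.39, −0.23 and −0.18 for alpha, beta and gamma, and mutants lay below every control for 7 alpha, 11 beta and 6 gamma members, as did 11.2% of genes.

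Pcdha8, another alternate alpha isoform, had the smallest p of all members. Its counts were 4.59, 5.61 and 4.91 CPM in controls and 2.79, 2.82, 2.78 and 2.74 CPM in mutants. The 4 mutants were tightly grouped and far below the controls, the library labelled mutant 4 included (log2 change −0.86 ± 0.11, edgeR adjusted p = 0.0689). Without that library the change was −0.85 and passed the test (edgeR adjusted p = 0.00762). With the sample number as a block it was −0.85 with an adjusted p of 0.0321.

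Pcdhb16 was at 19, 18.3 and 18.9 CPM in controls and 14.6, 15.3, 15.6 and 16.7 CPM in mutants. Mutants were lower without overlap, the library labelled mutant 4 being the highest of them (log2 change −0.27 ± 0.06, edgeR adjusted p = 0.0952). Without it the change was −0.30 (edgeR adjusted p = 0.0352). Pcdhb19, the beta gene with the most counts, was at 26.6, 24.5 and 25.4 CPM in controls and at 21.8, 19.6, 22.8 and 22.7 CPM in mutants, also without overlap (log2 change −0.24 ± 0.07, edgeR adjusted p = 0.115, and −0.26 with 0.0829 without the library labelled mutant 4). Pcdha2 was the third member called without the library labelled mutant 4 (log2 change −0.49, edgeR adjusted p = 0.0472). It was named after its values were seen.

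In the gamma cluster Pcdhgc4 was at 53.7, 55.4 and 51.9 CPM in controls and 43.5, 42, 49.5 and 45.5 CPM in mutants, all lower (log2 change −0.26 ± 0.06, edgeR adjusted p = 0.098). Pcdhgb4, a B-subfamily gamma isoform, was at 13.6 to 16.8 CPM in controls and 11.8 to 12.9 CPM in mutants (log2 change −0.33 ± 0.08, edgeR adjusted p = 0.1). Pcdhgc3 differed in sign, with 113.4 to 137.1 CPM in controls and 120.7 to 141 CPM in mutants (log2 change 0.06 ± 0.08, edgeR adjusted p = 0.715), and without control 3 its change was −0.01. The other C-type members had changes of −0.29 ± 0.09 for Pcdhgc5, −0.18 ± 0.13 for Pcdhac1 and −0.17 ± 0.07 for Pcdhac2 (edgeR adjusted p = 0.145, 0.477 and 0.216), and Pcdha5 had −0.50 ± 0.13 (edgeR adjusted p = 0.11). Without the library labelled mutant 4 none of these 7 was called: Pcdhgc4 was at −0.26, Pcdhgb4 at −0.33, Pcdha5 at −0.56, Pcdhgc5 at −0.28, Pcdhac1 at −0.21, Pcdhac2 at −0.18 and Pcdhgc3 at 0.10, with edgeR adjusted p values between 0.0614 and 0.514. Pcdhgc4, Pcdhgb4 and Pcdha5 were called by DESeq2 (adjusted p = 0.0184, 0.0276 and 0.0277) and by edgeR with no low-count filter (adjusted p = 0.0213, 0.029 and 0.00614).

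Whether the 2 lines differed at P2 was tested directly. No member passed, and no gene among 20837 did (0%), with 7 members under an unadjusted p of 0.05, where 6.89% of genes were, and 0 called by DESeq2. Differences were positive (Insm1 effect above Tead1/2 effect) for 20 of 21 beta members with a median of 0.24, for 12 of 14 alpha members with 0.13 and for 13 of 21 gamma members with 0.10. Pcdhb22 was the first of the beta genes at 0.34 ± 0.09 (edgeR adjusted p = 0.484), with Pcdhb16 at 0.34 ± 0.10 (edgeR adjusted p = 0.541). The alpha member with the smallest p was Pcdha8 at 0.77 ± 0.26 (edgeR adjusted p = 0.613), followed by Pcdha9 at 0.25 ± 0.14 (edgeR adjusted p = 0.786). For the gamma genes Pcdhgb4 had a difference of 0.34 ± 0.16 (edgeR adjusted p = 0.722) and Pcdhgc3 of −0.28 ± 0.16 (edgeR adjusted p = 0.79). Without the library labelled Tead1/2 mutant 4 again 0 members were called by edgeR (0% of genes), 8 were under an unadjusted p of 0.05 (6.88% of genes), and 20 of 21 beta, 14 of 14 alpha and 13 of 21 gamma differences were positive, with medians of 0.27, 0.17 and 0.11.

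By P7 the alpha cluster was lower in the mutants of both lines, while the beta and gamma sums moved little. Summed over all kept cells, the alpha genes had 124.7 and 104.3 UMI CPM in the Insm1 controls and 67.2, 66.7 and 64.2 in the mutants. In the Tead1/2 line they had 81.9 and 94.3 UMI CPM in controls and 43.6, 33 and 46.2 in mutants. All mutant libraries were below all controls in both lines, and control means were 1.73 and 2.15 times the mutant means. Without Pcdha10, which holds most of the alpha UMIs, the ratios were 1.79 and 2.26.

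Beta sums at P7 were 58.4 and 52.9 UMI CPM in Insm1 controls and 47.5 to 53 in the mutants, and 54.3 and 59.1 against 50 to 55.6 in the Tead1/2 line. These ranges overlapped in both lines, and the control means were 1.10 and 1.08 times the mutant means. Gamma sums ranged from 441.2 to 453 in Insm1 controls and from 423.1 to 453.2 in mutants, with 422.4 to 431.8 against 433.5 to 444.7 in the Tead1/2 line. The Tead1/2 mutants thus lay slightly above their controls for gamma, at a ratio of control to mutant of 0.971. In a sum over whole tissue, fewer cells of a type and less RNA per cell cannot be told apart.

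**Figure D2:**
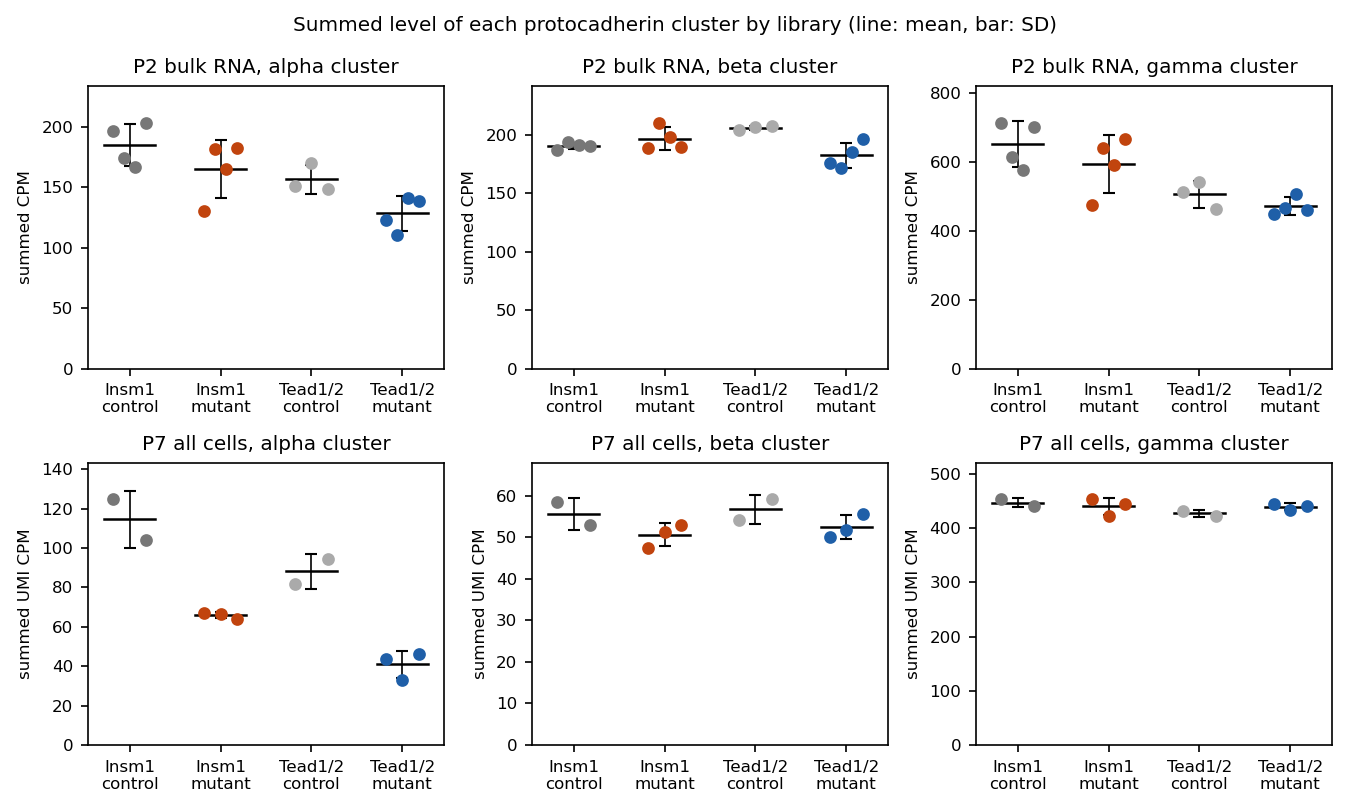
Summed level of the alpha, beta and gamma members in every library (points), as summed CPM at P2 (top row) and summed UMI CPM over all kept cells at P7 (bottom row), with the mean as a line and the SD as a bar. At P7 the alpha points of the mutants (33 to 67.2 UMI CPM) lie below all control points (81.9 to 124.7), while the beta and gamma points stay close together.

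In the Insm1 line at P7, 8 of the 14 alpha members fell and none of the 21 tested beta or 21 gamma members was called (edgeR quasi-likelihood test on UMI sums per library, adjusted p under 0.05). In this comparison 33.9% of the 24602 genes tested were called, and 15.4% of the genes tested were called lower. The alpha count of 8 in 14 stands beside that share as a description, since the members need not be separate observations. Alpha changes had a median of −0.75 on the log2 scale, all 14 negative, against −0.14 for beta, −0.03 for gamma and 0.04 for all genes. Every mutant library was below every control library for 9 alpha, 9 beta and 2 gamma members, where 36.8% of all genes averaging 1 UMI CPM or more were. For 4 gamma members every mutant was above every control, as for 31.4% of those genes. The member counts had no such level cut. They take in members averaging below 1 UMI CPM, most of the alpha members among them, so they and the shares do not cover like sets.

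Pcdha10 levels were 92 and 80 UMI CPM in controls of the Insm1 line, with its mutants at 51.7, 50.5 and 48. The groups did not overlap, also within each dissection: control 1 and mutant 1 cover all lobules, the others leave out lobules IX and X. It fell by 0.78 ± 0.12 on the log2 scale (edgeR adjusted p = 0.000778) and stayed called whichever single library was left out. Pcdha3 was at 17.6 and 13.2 UMI CPM in controls and 7.57, 8.45 and 7.82 in mutants, again apart (log2 change −0.95 ± 0.16, edgeR adjusted p = 0.0012).

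The other alternate alpha isoforms that fell had fewer UMIs. Pcdha1 was at 1.66 and 1.05 UMI CPM in controls and 0.517 to 0.742 in mutants (log2 change −1.17 ± 0.28, edgeR adjusted p = 0.00874), and Pcdha11 at 3.24 and 2.39 against 1.27 to 1.53 (log2 change −1.01 ± 0.24, edgeR adjusted p = 0.00845). Control 1 was the highest library for each of these. Without it the log2 change of Pcdha1 was −0.82 (edgeR adjusted p = 0.1) and that of Pcdha11 −0.79 (edgeR adjusted p = 0.0849). Pcdha12 (−1.05 ± 0.28, edgeR adjusted p = 0.0147) and Pcdha4 (−1.07 ± 0.29, edgeR adjusted p = 0.0173) also lost their calls without it. Without doublet-marked barcodes 6 members were called, and Pcdha1 (−1.21, edgeR adjusted p = 0.0854) and Pcdha11 (−0.84, edgeR adjusted p = 0.113) were not. In all 3 members were called without control 1, Pcdhb3 and 2 alpha genes, and 5 without mutant 2.

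The alpha C-type genes were not called by edgeR in the Insm1 line. Pcdhac2 was at 3.49 and 3.58 UMI CPM in controls and 2.74, 2.59 and 3.11 in mutants, lower in each mutant (log2 change −0.33 ± 0.13, edgeR adjusted p = 0.069), and it was called by DESeq2 (−0.35, adjusted p = 0.038) and by edgeR without Tead1/2 mutant 3 (adjusted p = 0.0401). Pcdhac1 was at 0.761 and 0.375 against 0.307 to 0.535 (log2 change −0.47 ± 0.36, edgeR adjusted p = 0.343), and its sign turned without control 1. Gamma C-types were level or slightly above the controls: Pcdhgc4 at 82.5 and 80.3 UMI CPM in controls and 84.3 to 88.6 in mutants, Pcdhgc3 at 43.8 and 40.6 against 42.2 to 51.1, and Pcdhgc5 at 10.6 and 11.3 against 11.6 to 12.4. Their log2 changes were 0.10 ± 0.06, 0.12 ± 0.09 and 0.13 ± 0.07 (edgeR adjusted p = 0.287, 0.327 and 0.191). The beta and gamma members with the smallest p were Pcdhb3 at −0.54 ± 0.22, Pcdhb9 at −0.35 ± 0.15 and Pcdhga9 at −0.19 ± 0.07 (edgeR adjusted p = 0.088, 0.0899 and 0.0696). Pcdhga9 was called by DESeq2 (−0.21, adjusted p = 0.0369) and by edgeR without Insm1 mutant 1 (−0.26, adjusted p = 0.0164).

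In the Tead1/2 line at P7, 11 of 14 alpha members fell, 1 of 21 tested beta members fell and 2 of 21 gamma members rose. Of the 24602 genes tested 48.6% were called, made up of 22.7% called lower and 25.9% called higher. The beta share that fell and the gamma share that rose were thus below those of all genes. The alpha median was −1.17 on the log2 scale with all 14 members negative, the beta median −0.11, the gamma median 0.06 and that of all genes 0.06. For 12 alpha, 6 beta and no gamma members every mutant library was below every control library, as for 41.3% of all genes averaging 1 UMI CPM or more. For 5 gamma members every mutant was above every control, against 33.0% of those genes. The member counts again had no level cut.

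Pcdha10 was at 61.1 and 69.9 UMI CPM in the Tead1/2 controls and 33.3, 25.2 and 34.5 in the mutants, without overlap and with mutant 2 lowest (log2 change −1.08 ± 0.12, edgeR adjusted p = 4.83e-05). Pcdha3 went from 10.4 and 12.2 to 4.98, 3.62 and 5.20 UMI CPM (log2 change −1.30 ± 0.16, edgeR adjusted p = 9.71e-05). Pcdhac2, the C-type alpha gene, was at 3.64 and 3.71 in controls and 1.90, 1.75 and 2.24 in mutants. It fell by 0.91 ± 0.13 on the log2 scale (edgeR adjusted p = 0.000205).

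Pcdha11, Pcdha9 and Pcdha12 complete the 6 alpha members with the smallest p. They fell by 1.28 ± 0.25, 1.19 ± 0.25 and 1.38 ± 0.29 on the log2 scale (edgeR adjusted p = 0.00172, 0.00269 and 0.00298). The lowest levels were those of mutant 2 for each of them. Pcdhac1 was not called, at 0.374 and 0.605 UMI CPM in controls and 0.235 to 0.377 in mutants (log2 change −0.69 ± 0.38, edgeR adjusted p = 0.161).

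Among the other clusters Pcdhb4 was at 1.27 and 1.44 UMI CPM in Tead1/2 controls and at 0.833, 1.01 and 1.08 in mutants (log2 change −0.46 ± 0.16, edgeR adjusted p = 0.0327). Its call was lost on leaving out either control, mutant 1 or mutant 2, with adjusted p values from 0.0609 to 0.202, and also with no low-count filter (0.0645), with a sex term (0.104) and without doublet-marked barcodes (−0.36, 0.293). The gamma members that rose belong to the A subfamily. Pcdhga2 was at 1.96 and 1.78 in controls and 3.30, 2.55 and 2.41 in mutants (log2 change 0.55 ± 0.16, edgeR adjusted p = 0.0166), and Pcdhga4 at 1.95 and 1.98 against 2.52, 2.64 and 2.74 (log2 change 0.42 ± 0.13, edgeR adjusted p = 0.0189). Neither group overlapped its controls, but without control 2, which leaves 1 control, neither was called (log2 changes 0.48 and 0.44). Pcdhga4 was not called without control 1 either (0.41) or without doublet-marked barcodes (0.36, edgeR adjusted p = 0.215). With a sex term Pcdhga2 was not called (0.40, edgeR adjusted p = 0.0757). Over all members 7 were called without control 2, all alpha.

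Pcdhgc4 was at 77.6 and 76.2 UMI CPM in Tead1/2 controls and 80.1, 82.4 and 92.9 in mutants, above the controls in each (log2 change 0.15 ± 0.06, edgeR adjusted p = 0.0861). Pcdhgc3 had a log2 change of 0.12 ± 0.09 and Pcdhgc5 of −0.05 ± 0.07 (edgeR adjusted p = 0.317 and 0.583). With a sex term Pcdhgc4 (0.21) and Pcdhgc3 (0.22) were called (edgeR adjusted p = 0.0157 and 0.0475). Sex, read from Xist, was not balanced here: Xist was at 1280 and 1282 UMI CPM in the controls and at 5.57, 4.54 and 1016 in the mutants. The sign of Pcdhgc5 turned to 0.02 without control 2.

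**Figure D3:**
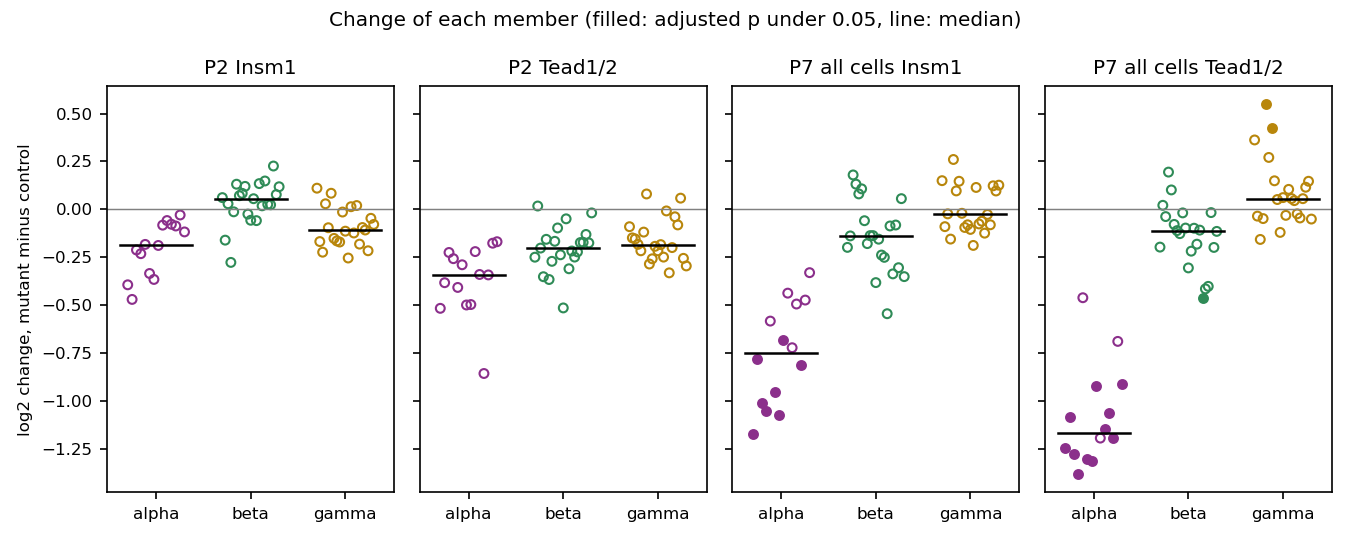
Log2 change (mutant minus control) of each tested member in the bulk P2 fits and the whole-cerebellum P7 fits of both lines, by cluster. Filled points passed an edgeR adjusted p under 0.05, open points did not, and the black line is the cluster's median. Filled points appear at P7 only, nearly all of them alpha members below 0, with cluster medians of −0.75 (Insm1) and −1.17 (Tead1/2).

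No member differed between the lines at P7 by the test of the difference itself, where 3.68% of the 24602 genes were called. Under an unadjusted p of 0.05 there was 1 member, where 19.8% of genes passed, and DESeq2 called 1. It was Pcdhac2, whose change was 0.58 ± 0.18 less negative in the Insm1 line (edgeR adjusted p = 0.113). Leaving out Tead1/2 mutant 3 brought it to 0.69 with an adjusted p of 0.0471. For Pcdha10 the difference was 0.30 ± 0.18 (edgeR adjusted p = 0.381). The members with the smallest p in the other clusters were Pcdhb4 (0.37 ± 0.22), Pcdhb7 (−0.29 ± 0.20), Pcdhgc5 (0.18 ± 0.10) and Pcdhga5 (−0.17 ± 0.11), with edgeR adjusted p values of 0.387, 0.462, 0.353 and 0.423.

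Other cells moved with these P7 sums. Of the kept and clustered cells, 46.7% to 61.2% of the Insm1 mutants' and 32.2% to 43.9% of the Tead1/2 mutants' were granule lineage cells, against 75.7% to 79.2% in controls. Summed levels of 9 granule neuron markers were 4241 to 5074 UMI CPM in controls, 2725 to 3385 in Insm1 mutants and 2054 to 2248 in Tead1/2 mutants. With the 4 clusters led by skeletal muscle markers and the barcodes marked as doublets left out, 1 of 11 tested alpha members was called in each line, and the alpha medians were −0.65 and −0.67. It was Pcdha10 both times, at −0.56 ± 0.15 (edgeR adjusted p = 0.0346) in the Insm1 line and −0.66 ± 0.15 (edgeR adjusted p = 0.0134) in the Tead1/2 line. The barcodes marked as doublets were the deeper ones, with medians of 13235 to 27541 UMIs by library against 4756 to 7649 in those kept. These sums and all class sums are therefore shallower, and the part of depth in the lost calls was not tested. In that setting 12.5% of 19071 genes were called in the Insm1 line and 20.6% in the Tead1/2 line, and 11.9% rose in the latter, where Pcdhga5, Pcdhgc3 and Pcdhgc4 rose by 0.40, 0.35 and 0.40. Pcdha3 was then at −0.75 (edgeR adjusted p = 0.0611) in the Insm1 line and −0.70 (edgeR adjusted p = 0.0614) in the Tead1/2 line.

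UMIs of the 3 clusters were summed by cell class, with classes named from marker genes after clustering 47902 cells. Where no line is named, control levels of a class pool both lines, so their SD can hold a difference between the lines. The log2 changes compare mutants with the controls of their own line. Alpha sums in the 4 control libraries were 217 ± 25.3 UMI CPM in granule neuron-like cells, 133 ± 14.5 in GABAergic interneuron-like cells and 82.4 ± 9.14 in oligodendrocyte lineage-like cells (SD, n = 4). In granule progenitor-like cells they were 38.03 ± 6.02 and in astroglia-like cells 16.7 ± 7.38. Microglia-like cells had 8.09 ± 12.5, a mean that rests on Insm1 control 2 with 26.6, where the other controls had 0 to 4.42. Granule neuron markers summed to 8557 ± 448 UMI CPM in granule neuron-like cells, 2232 ± 391 in interneuron-like cells, 1462 ± 146 in astroglia-like cells, 1061 ± 494 in oligodendrocyte lineage-like cells and 473 ± 537 in microglia-like cells, where Insm1 control 2 was again the highest at 1252. Relative to granule neuron-like cells, the astroglia-like and microglia-like means were lower for the alpha sum than for these markers, and their alpha UMIs are not read as expression. Granule progenitor-like cells belong to the same lineage and are not a class that should lack these markers, which they had at 3770 ± 215. Their relative alpha mean was also below that of the markers, so a change of alpha UMIs in that class is given below as one of UMIs counted there, and the part of RNA from granule neurons in it was not tested. Nor was that of free RNA in the other classes. Purkinje-like cells reached the minimum of 20 in 1 library alone, Insm1 mutant 3, where 37 cells had an alpha sum of 432, a value with no replicate and no control beside it.

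Gamma genes had another order. Their sums in controls were highest in astroglia-like (748 ± 48.5 UMI CPM) and meningeal fibroblast-like cells (715 ± 93.5), followed by oligodendrocyte lineage-like (628 ± 61.1) and endothelial-like cells (579 ± 54.4). Granule neuron-like cells had 498 ± 5.03, granule progenitor-like cells 322 ± 13.9 and microglia-like cells 180.03 ± 46.7. The astroglia-like and fibroblast-like levels did not differ beyond their spread. Beta sums were 95.5 ± 7.48 in meningeal fibroblast-like cells, 95.8 ± 19.6 in endothelial-like cells, 78.7 ± 10.2 in granule neuron-like cells and 36.3 ± 2.40 in granule progenitor-like cells, with 4.63 ± 3.31 in microglia-like cells. Between the progenitor-like and the neuron-like class of the controls, all 3 clusters were thus higher in the neuron-like class, as a description with no test.

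**Figure D4:**
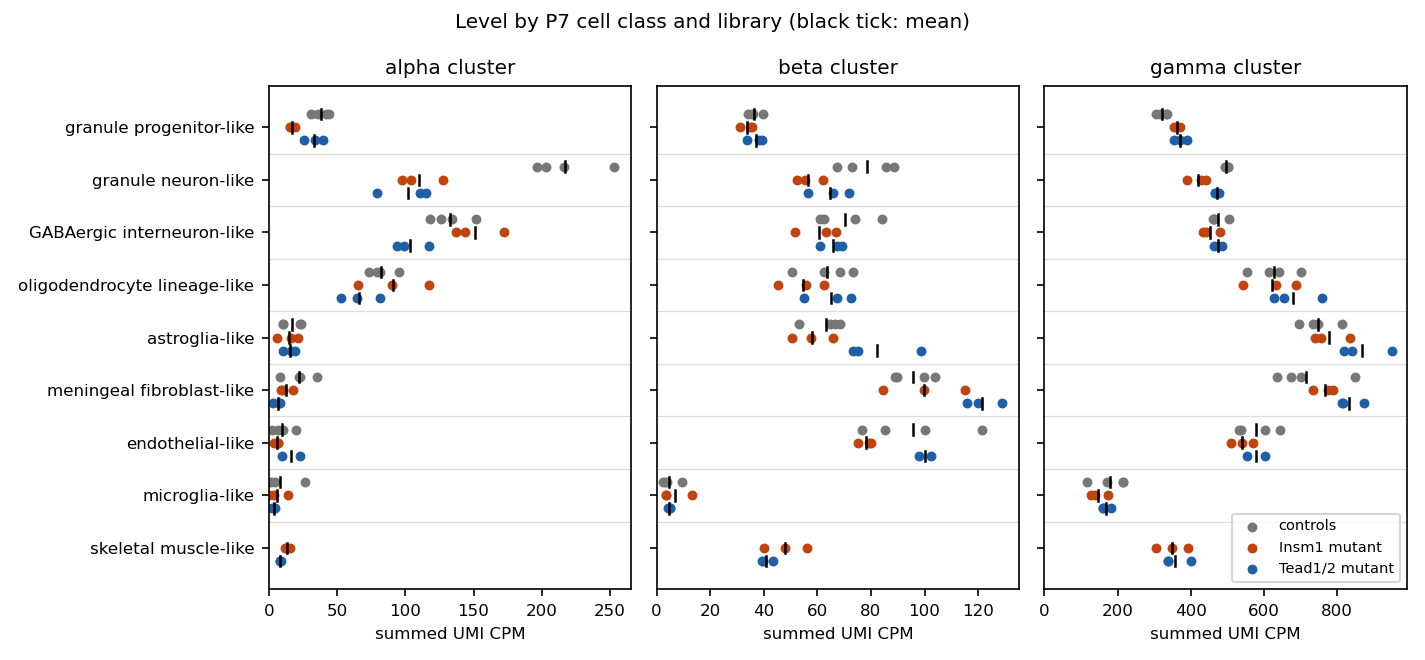
Summed UMI CPM of the alpha, beta and gamma members (x axis) in 9 cell classes of the P7 cerebellum, 1 point per library and class with at least 20 cells, grey for controls of both lines, red for Insm1 mutants and blue for Tead1/2 mutants, with the mean as a black tick. Alpha points of granule neuron-like cells are near 217 in controls and near 110 and 102 in the mutants, while in interneuron-like cells the Insm1 mutants overlap the controls and the Tead1/2 mutants lie just below them.

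Within granule neuron-like cells the alpha sums were 196 to 253 UMI CPM in the 4 controls, 97.7 to 128 in the Insm1 mutants and 79.2 to 115 in the Tead1/2 mutants, without overlap. Beta sums were 67.3 to 88.8, 52.4 to 61.9 and 56.6 to 71.9, the last overlapping the controls. Gamma sums were 493 to 503, 391 to 441.5 and 466 to 478.6, without overlap. Negative were 16 and 19 of 19 tested beta changes in the Insm1 and Tead1/2 lines, with medians of −0.36 and −0.59. For gamma these were 19 and 18 of 21, with −0.25 and −0.225. Over all genes 50.7% and 48.3% of changes were negative, with medians of −0.006 and 0.014. The class is not made of the same clusters in both genotypes, and its name was not stable for some of them: 65.1% to 89.6% of the mutants' cells in it lay in 4 clusters (numbers 4, 11, 15 and 23) that held 0.658% to 2.61% of the controls' cells in it. Alpha sums in those clusters were 31.9, 98.9, 88.8 and 167 UMI CPM, and in the clusters of the controls (0, 3 and 10) they were 238, 140 and 289. Granule neuron markers inside the class summed to 8557 ± 448 in controls, 6832 ± 594 in Insm1 mutants and 5864 ± 457 in Tead1/2 mutants, and muscle markers to 68.2 ± 11, 151 ± 17.7 and 374 ± 235 UMI CPM. Their part in the alpha result was not tested. At a coarser clustering (Leiden resolution 0.5) 99.4% of cluster 4's cells lay in a progenitor-like cluster and 99.5% of cluster 11's in an unnamed one, while cluster 27, unnamed before, joined the neuron-like class with 690 cells, all from mutants, and an alpha sum of 28.7. With the class so redrawn, alpha sums were 255 and 219 UMI CPM in Insm1 controls and 151, 118 and 121 in the mutants, and 199 and 204 against 154, 84.3 and 139 in the Tead1/2 line, lower than the controls in each mutant.

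In the Insm1 line 6 of the 8 tested alpha members fell in granule neuron-like cells, where 22.5% of 14203 genes were called and 9.10% lower. Of 21 tested gamma members 2 were called lower, a share near that of all genes, and no beta member was called. Pcdha10 was at 164 ± 16.3 UMI CPM over the 4 controls and at 88.4 ± 9.02 in the Insm1 mutants (log2 change −1.02 ± 0.14 within the line, edgeR adjusted p = 0.000135). Pcdha3 was at 29.2 ± 6.37 and 9.77 ± 3.11 (log2 change −1.80 ± 0.24, edgeR adjusted p = 8.2e-05). The others were Pcdha1, Pcdha5, Pcdha11 and Pcdha12, with log2 changes of −2.04 ± 0.41, −2.51 ± 0.64, −1.06 ± 0.32 and −1.93 ± 0.41. They have few UMIs: over all P7 cells the Insm1 mutants had 0.517 to 0.742 UMI CPM of Pcdha1 and 0.363 to 0.52 of Pcdha5. Pcdha12 was at 0.62 to 0.717 and Pcdha11 at 1.27 to 1.53. The low-count filter can admit a member through the control libraries alone, where its counts are higher. Counts such as 6 of 8, here and in the other classes, therefore describe the members that it admitted. The A-subfamily gamma isoforms Pcdhga9 and Pcdhga12 fell by 0.51 ± 0.13 and 0.53 ± 0.16. Against these 8 calls there were 4 without control 1, 5 without control 2 and 15 without mutant 1. Pcdhga12 was not called with DESeq2 (adjusted p = 0.101) or by edgeR without control 1, control 2, mutant 1 or mutant 2, and Pcdhga9 not without control 2. Pcdha11 was not called with DESeq2 (adjusted p = 0.061) or by edgeR without control 1, mutant 2 or mutant 3, and Pcdha1 and Pcdha12 not without control 1. Pcdha5 was not called without control 2 (−2.31, edgeR adjusted p = 0.0734). In the redrawn class of the coarser clustering 3 members were called by edgeR, Pcdha10 at −0.69 (adjusted p = 0.0187), Pcdha3 at −1.43 (adjusted p = 0.00436) and Pcdha1 at −1.82 (adjusted p = 0.0152), where 14.7% of genes were.

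In the Tead1/2 line also 6 of 8 tested alpha members fell in this class, where 26.6% of the genes were called and 11.1% lower. Of 19 tested beta members 2 were called lower, a share near that of all genes, and no gamma member was called. Pcdha10 was at 77.7 ± 14 UMI CPM in the mutants (log2 change −1.09 ± 0.14, edgeR adjusted p = 8.53e-05) and Pcdha3 at 11.8 ± 2.80 (log2 change −1.22 ± 0.24, edgeR adjusted p = 0.0019). Pcdha1, Pcdha9, Pcdha11 and Pcdha12 fell by 2.24 ± 0.45, 1.78 ± 0.51, 1.27 ± 0.35 and 1.39 ± 0.42 on the log2 scale. The beta members Pcdhb16 and Pcdhb19 fell by 0.80 ± 0.18 and 0.75 ± 0.20, and Pcdhb19 lost its call without control 2 (−0.63, edgeR adjusted p = 0.12) or mutant 2 (−0.68, edgeR adjusted p = 0.0593). The number of calls was 4 without control 2 or without mutant 2, 5 without control 1 and 13 without mutant 1 of the Insm1 line. Pcdha11 (−1.03) and Pcdha12 (−1.25) were not called with a sex term (edgeR adjusted p = 0.0736 and 0.0918). Pcdha9, Pcdha11 and Pcdha12 were each not called without control 1, control 2 or mutant 2. Pcdha9 was also not called without mutant 3, nor Pcdha12 with DESeq2 (adjusted p = 0.0793). In the redrawn class Pcdha10 was at −0.77 (edgeR adjusted p = 0.00695), and Pcdha1 (−2.15) and Pcdhb16 (−0.77) stayed called, while Pcdha3 (−0.84, edgeR adjusted p = 0.0533) and Pcdhb19 (−0.66, edgeR adjusted p = 0.0534) did not. With Pcdhb18 (−0.83, edgeR adjusted p = 0.0414, named after its values were seen) 4 members were called there, read against 26.7% of genes. No member was called for a difference between the lines at either resolution, where 0.162% of genes were at resolution 1.0 and 1.98% at 0.5.

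In granule progenitor-like cells, with the limit on their alpha UMIs given above, alpha sums were 30.6 to 44.1 UMI CPM in controls, 15.4 to 19.5 in Insm1 mutants and 25.7 to 39.7 in Tead1/2 mutants. Insm1 mutants lay below all other libraries and the Tead1/2 mutants overlapped the controls. Of the 3 alpha members with enough UMIs to be tested, all 3 fell in the Insm1 line (Pcdha10 at −1.30 ± 0.15, edgeR adjusted p = 3.38e-05, Pcdha3 at −1.80 ± 0.32 and Pcdhac2 at −1.60 ± 0.39). Of the 14091 genes tested 15.4% were called there and 7.10% lower. None of the 3 was called in the Tead1/2 line, where 7.82% of genes were.

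Pcdha10 was at 28.3 ± 4.79 UMI CPM in progenitor-like cells of the controls, 13.4 ± 1.93 in Insm1 mutants and 25.1 ± 4.27 in Tead1/2 mutants. It was the one member whose change differed between the lines in this class (difference −1.31, edgeR adjusted p = 0.00311), and 4.03% of the 14091 genes did. That call rests on the class boundary: in the progenitor-like class of the coarser clustering, which takes in cluster 4 and the 1137 cells of cluster 19 (unnamed before, all from mutants, alpha sum 9.99), the difference was −0.72 (edgeR adjusted p = 0.111). Pcdha10 itself was there at −1.10 in the Insm1 line (edgeR adjusted p = 0.000145), with alpha sums of 44.4 and 41.5 UMI CPM in controls and 17.1, 19.5 and 20.8 in mutants, and at 30.5 and 36.7 against 30.6, 22.2 and 27.1 in the Tead1/2 line. For Pcdhac2 the call in the Insm1 line rested on 15 UMIs in the 3 mutants and was lost without control 2 (log2 change −1.25, edgeR adjusted p = 0.119) or mutant 2 (−1.63, edgeR adjusted p = 0.053). Cluster 5, one of the progenitor-like clusters, had 18 control cells among 2046 and an alpha sum of 13.4. Granule neuron markers in the class were at 3770 ± 215 in controls, 2813 ± 64.2 in Insm1 mutants and 3170 ± 174 in Tead1/2 mutants, and muscle markers at 73.3 ± 9.25, 226 ± 38.9 and 310 ± 108 UMI CPM. Their part was not tested.

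Gamma sums in progenitor-like cells went the other way, 305 to 335 UMI CPM in controls against 355 to 371 in Insm1 and 354 to 391 in Tead1/2 mutants, with no overlap. Here too the genotypes sat in different clusters. Of the progenitor-like cells 61.7% to 89.8% in mutants and 2.66% to 7.77% in controls lay in clusters 5 and 7. Gamma sums were 364 and 347 in those, and 281 and 351 in clusters 1 and 2, which held most of the control cells. Clusters 9 and 20, with 1452 control cells among 1675 and 767 among 1078, were higher still, at 386 and 368. The part of this makeup was not tested. One gamma member was called there, Pcdhgc4 in the Tead1/2 line (log2 change 0.37, edgeR adjusted p = 0.024), where 3.98% of genes rose. Its level was 59.1 ± 4.46 in controls and 76.2 ± 8.45 in those mutants, and 75.1 ± 2.28 in Insm1 mutants, where it was not called. The Tead1/2 call was lost without any one of control 1, control 2, mutant 2 and mutant 3 (edgeR adjusted p = 0.062 to 0.19). In the progenitor-like class of the coarser clustering 3 gamma members rose in each line, where 10.1% and 10.0% of genes rose, among them Pcdhgc4 in both.

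Over the granule lineage as a whole, progenitor-like and neuron-like cells together, 5 of 9 tested alpha members fell in the Insm1 line (19.6% of 16005 genes called, 7.87% lower) and none of the 9 in the Tead1/2 line (22.1% called). In the main clustering the share of neuron-like cells in the lineage was 38.5% to 48.2% in controls. It was 56.7% to 59.9% in Insm1 mutants and 62.6% to 77.9% in Tead1/2 mutants. This order rests on the class boundary. The neuron-like class takes in cluster 4, with 2318 cells, none from controls, and an alpha sum of 31.9 UMI CPM. Progenitor-like cells of the controls averaged 38.03. In the coarser clustering 99.4% of cluster 4's cells lay in a progenitor-like cluster. Pooled over libraries, the neuron-like share was there lower in mutants than in controls. The part of this makeup in the alpha result was not tested. Only 2 members were called in the Insm1 line without control 1 or without mutant 2. Pcdhgc4 was the single member called in the Tead1/2 line (log2 change 0.29, edgeR adjusted p = 0.0229), where 12.3% of genes rose, and no member was without control 1, control 2 or mutant 3.

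GABAergic interneuron-like cells, which lie outside the Atoh1 lineage, served as the comparison class. Alpha sums there were 118 to 152 UMI CPM in controls, 138 to 172 in Insm1 mutants and 93.8 to 117 in Tead1/2 mutants, so the Insm1 mutants overlapped the controls and the Tead1/2 mutants lay just below them. None of the 4 tested alpha members was called in either line, where 2.07% and 0.572% of 12060 genes were called. Under an unadjusted p of 0.05 there were 0 and 1 of them, against 12.1% and 8.80% of genes. DESeq2 was not run on this class. Granule neuron markers in it summed to 2232 ± 391 UMI CPM in controls, 1894 ± 77.3 in Insm1 mutants and 1645 ± 68.8 in Tead1/2 mutants, and muscle markers to 60.2 ± 3.88, 127 ± 23.6 and 425 ± 209. Their part was not tested. The name of this class was not stable either: at resolution 0.5, 78.0% of the cells of cluster 14 and 100% of those of cluster 26 lay in unnamed clusters. In the class so redrawn alpha sums were 194 and 219 UMI CPM in Insm1 controls and 179, 235 and 183 in mutants, and 165 in both Tead1/2 controls against 138, 143 and 166. Again no member was called by edgeR in either line (0.423% and 0.319% of genes), and 0 and 1 were under an unadjusted p of 0.05, as were 845 and 802 of 10650 genes.

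The difference between the 2 classes was tested with the library as a block. The log2 change of Pcdha10 was lower in granule neuron-like than in interneuron-like cells in both lines. The gap was 1.10 in the Insm1 line (edgeR adjusted p = 2.82e-06) and 0.77 in the Tead1/2 line (edgeR adjusted p = 0.00024). For Pcdha3 it was 2.18 (edgeR adjusted p = 5.67e-05) and 1.12 (edgeR adjusted p = 0.0352). In the Insm1 line neither gene fell in interneuron-like cells, with changes of 0.07 for Pcdha10 and 0.36 for Pcdha3 (edgeR adjusted p = 0.875 and 0.498). In the Tead1/2 line 3 of the 4 alpha members tested in interneuron-like cells had a negative change (median −0.22), none of them called. Pcdha10 was there at 69.5 to 86.5 UMI CPM in those mutants, below the 91.8 to 114.9 in the controls of both lines. For the gap between the classes, Pcdha10 and Pcdha3 were the 2 called of 7 tested alpha members in each line, where 15.3% and 13.9% of 13850 genes were called. In the Insm1 line Pcdhga9 and Pcdhgc4 were called as well, at −0.60 and −0.34 (edgeR adjusted p = 0.0485 for Pcdhgc4). With the redrawn granule neuron-like class of the coarser clustering, the differences were −0.79 for Pcdha10 (edgeR adjusted p = 0.00186) and −1.82 for Pcdha3 (edgeR adjusted p = 0.00272) in the Insm1 line, and neither passed in the Tead1/2 line (−0.46 and −0.75, edgeR adjusted p = 0.0603 and 0.262). With the interneuron-like class alone redrawn, Pcdha10 passed in both lines (−0.89 and −0.83, edgeR adjusted p = 0.000456 and 0.000907) and Pcdha3 in the Insm1 line only (−1.97 and −1.14, edgeR adjusted p = 0.0015 and 0.0794). With both classes redrawn, Pcdha3 in the Insm1 line was the one member called (−1.61, edgeR adjusted p = 0.0225, beside 6.85% of genes), and Pcdha10 did not pass in either line (−0.57 and −0.52, edgeR adjusted p = 0.0603 and 0.0747, with 11.2% of genes called in the Tead1/2 line). Across these 4 ways of drawing the classes, Pcdha3 in the Insm1 line passed each time, while the calls of Pcdha10 and of the Tead1/2 line depended on the boundaries.

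**Figure D5:**
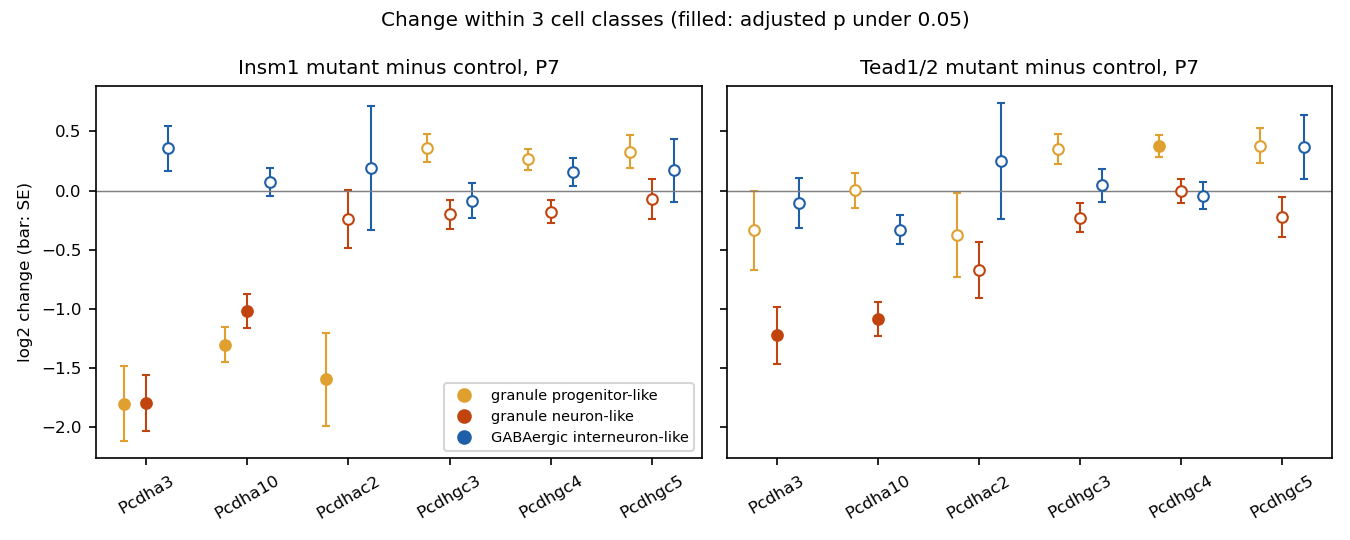
Log2 change (mutant minus control, with SE as a bar) of 6 members in granule progenitor-like (yellow), granule neuron-like (red) and GABAergic interneuron-like cells (blue) at P7, for the Insm1 line (left) and the Tead1/2 line (right). Filled points passed an edgeR adjusted p under 0.05. Pcdha10 is filled in both granule classes on the left (−1.30 and −1.02) and in the neuron-like class alone on the right (−1.09), and its interneuron-like points are open.

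Beside the arrays, 4 sets of genes tied to them were followed. Of 20 chromatin and looping regulators none was called at P2 in either line, where Dnmt1, the maintenance methyltransferase, had the smallest p in the Insm1 line (−0.19 ± 0.08, edgeR adjusted p = 0.523) and the cohesin subunit gene Stag2 in the Tead1/2 line (0.19 ± 0.05, edgeR adjusted p = 0.111). Over all P7 cells 14 of 20 fell in the Insm1 line and 17 of 20 in the Tead1/2 line, none rose, and the medians were −0.23 and −0.41. Ctcf, the insulator factor that binds the variable promoters, fell by 0.36 and 0.52 on the log2 scale (edgeR adjusted p = 0.00029 and 1.24e-05). Smchd1, the silencer of unused promoters, fell by 0.36 and 0.60, and Smc1a, of the cohesin ring, fell by 0.54 in the Tead1/2 line. Both counts stand above the 15.4% and 22.7% of all tested genes called lower. Without muscle-led clusters and doublet-marked barcodes edgeR called 0 of the 20 in the Insm1 line, with 9 under an unadjusted p of 0.05 (26.7% of all genes), and 10 of 20 lower in the Tead1/2 line, where 8.65% of genes were. DESeq2 was not run on these sums. Within granule neuron-like cells 3 and 2 of the 20 were called lower, near the 9.10% and 11.1% of all genes there. Over the granule lineage as a whole 1 of 20 was called lower in the Insm1 line and 10 of 20 in the Tead1/2 line, beside 7.87% and 9.80% of genes. In the progenitor-like class alone none was called by edgeR in either line. There 2 and 1 were under an unadjusted p of 0.05, as were 3689 and 2631 of 14091 genes. In that class as redrawn at resolution 0.5, 0 and 5 of 20 were called lower. Under an unadjusted p of 0.05 were 5 and 9, as were 4406 and 4460 of 15005 genes.

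The proteins that act downstream of the protocadherin tail, or process it, form a list of 23 genes. At P7, 3 rose and 10 fell in the Insm1 line and 2 rose and 11 fell in the Tead1/2 line, or 13 of 23 called in each, beside 33.9% and 48.6% of all genes. Without muscle-led clusters and doublet-marked barcodes 1 rose and 2 fell in the Insm1 line and 4 rose and 1 fell in the Tead1/2 line, beside 12.5% and 20.6% of genes called. Falls thus no longer outnumbered rises in the latter, and in neither line did all the falls named next stay called there. Wasf3 and Abi2, members of the WAVE actin regulatory complex, were among those that fell (Wasf3 by 0.46 and 0.81, Abi2 by 0.33 and 0.54), with Wasf1 at −0.36 in the Insm1 line. Src and Ptk2, kinases of the focal adhesion pathway, fell by 0.56 and 0.45 in the Tead1/2 line, and Prkca, whose product is a protein kinase C, rose by 0.41 in the Insm1 line. At P2 no gene of the list was called. Ret, a receptor tyrosine kinase that binds protocadherins, had the smallest p in the Insm1 line (−0.31 ± 0.10, edgeR adjusted p = 0.349) and Ctnnb1 in the Tead1/2 line (0.19 ± 0.05, edgeR adjusted p = 0.106).

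The relatives outside the arrays moved in both directions. Of 20 non-clustered protocadherins and large cadherins 8 rose and 3 fell at P7 in the Insm1 line, and 7 rose and 5 fell in the Tead1/2 line. Of all genes 18.6% rose and 15.4% fell in the Insm1 line and 25.9% rose and 22.7% fell in the Tead1/2 line, so the share that fell was near that of all genes. Without muscle-led clusters and doublet-marked barcodes 8 rose and 1 fell in the Insm1 line and 7 rose and 2 fell in the Tead1/2 line, beside 12.5% of all genes called in the former and 11.9% higher and 8.65% lower in the latter. Pcdh15, better known from hair cells, rose by 1.96 and 1.81 on the log2 scale, and Fat2, a large cadherin of granule cells, by 2.17 and 2.07. Celsr1 and Celsr2, cadherins of planar cell polarity, fell by 0.68 and 0.57 in the Insm1 line and by 1.34 and 0.99 in the Tead1/2 line. With 1 fall called in the Insm1 line without muscle-led clusters and doublet-marked barcodes, these 2 did not both stay called there. None of the list was called at P2, where Pcdh11x (0.21 ± 0.06, edgeR adjusted p = 0.216) and Pcdh17 (−0.30 ± 0.08, edgeR adjusted p = 0.104) had the smallest p in the Insm1 and Tead1/2 lines.

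Genes that flank the arrays or lie between them made up the last set. Of 16 such genes 15 were tested at P7, and 1 rose and 1 fell in the Insm1 line while 4 fell in the Tead1/2 line, a share below the 33.9% of all genes called in the former and close to the 22.7% called lower in the latter. Without muscle-led clusters and doublet-marked barcodes edgeR called 0 of 14 tested in each line, where 12.5% and 20.6% of genes were called. Under an unadjusted p of 0.05 were 1 and 2 of them, as were 5089 and 6571 of 19071 genes. None of the calls named next thus held there. Diaph1, a formin beside the gamma array, fell by 0.24 and 0.30 on the log2 scale (edgeR adjusted p = 0.00612 and 0.00125). Rell2 rose by 0.70 in the Insm1 line, and Fchsd1, Hars2 and Tmco6 fell by 0.55, 0.26 and 0.41 in the Tead1/2 line. Taf7, an intronless gene between the beta and gamma arrays, was not called at P7 in the Tead1/2 line (0.03 ± 0.08, edgeR adjusted p = 0.759) or at P2 (0.24 ± 0.06, edgeR adjusted p = 0.1). Arap3 had the smallest p of the set in the P2 Insm1 comparison (−0.28 ± 0.10, edgeR adjusted p = 0.398). Both medians at P7 were close to 0, −0.05 and −0.13.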

How the data were processed

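Bulk RNA came from single P2 cerebella (stranded total RNA kit) and single cells from single P7 cerebella (Parse Evercode WT v3), per the labels' protocols. The P2 values are expected counts per gene as deposited by the authors. RSEM 1.3.3 and STAR 2.7.9a are named in the submitters' processing notes with no role given. The bulk tables' file titles and column names name opposite lines, and samples were matched by column name. The P7 values are UMI counts per barcode and gene as deposited by the authors, on the genome named GRCm39 in the gene tables; the aligner is not given in the sources used here.

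Expected counts were rounded. ERCC spike-in entries (92) were left out. CPM used TMM-scaled library sizes, except in cell classes and clusters, where each class's own UMI total in a library was the base. Barcodes were kept from 1000 UMIs and 500 genes upwards where mitochondrial genes gave under 15% of the UMIs, and were then summed per library. For classes, the 40% of barcodes with the highest Scrublet scores in each library were marked as doublets and removed, since Scrublet's own threshold marked 0, 0 and 1 barcodes in 3 libraries and 36.4% to 55.3% in the others. Cells were clustered with scanpy 1.11.5 (2000 variable genes, 30 principal components, 15 neighbours, Leiden resolution 1.0) and named from marker lists. Tests were edgeR 4.0.16 quasi-likelihood fits (TMM, filterByExpr) over all genes with Benjamini-Hochberg adjustment at 0.05. At P2 the effect in each line was fitted on that line alone, and the difference of effects on all 15 samples of both lines. At P7 all 10 libraries were in 1 fit. The scripts were tested on simulated data. DESeq2 1.42.0 and other settings, among them classes redrawn at Leiden resolution 0.5, were alternatives.

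Members named were the 5 C-type genes, called members (up to 6 per cluster, smallest p first) or otherwise the 2 with the smallest p per cluster and contrast, and the highest and lowest of each cluster at P2. From the other lists, up to 4 called genes, or the 1 with the smallest p, were named. Members and lists were chosen with earlier results of these data known. The smallest chi-square per degree of freedom between replicates was 9.16 at P2 and 34.5 at P7, so no library was a copy. ATAC and CUT&RUN data were not analysed here.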

Additional observations from a re-analysis of the deposited data

Results flagged for a closer look

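Pcdhb22 stood out in 1 sample. At P2 it was at 16.55 CPM in Insm1 mutant 4, while the other 3 Insm1 mutants lay between 18.45 and 18.65 CPM, a gap of 0.905 of the group's range. Of 96 groups of 4 samples tested this was the 1 so marked, and chance marks about 1 in 20. The 4 controls were at 16.1 to 17.1 CPM.

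Pcdha10 differed between the lines in P7 granule progenitor-like cells. The difference of effects (Insm1 minus Tead1/2) was −1.307 on the log2 scale, with an edgeR adjusted p of 0.00311. In granule neuron-like cells and in the sum over all cells the same difference did not pass the test, and in the progenitor-like class of the coarser clustering (Leiden resolution 0.5) it was −0.724 with an edgeR adjusted p of 0.111. The part of RNA from granule neurons in the alpha UMIs of that class was not tested.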

How the results depend on the processing

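Alternatives were DESeq2, RLE factors, no low-count filter, a sex term (Xist above 100 CPM, a threshold set after seeing the data), the replicate block, leaving out each library, doublet removal, a minimum of 2000 UMIs and Leiden resolution 0.5. Cell-class settings and the removal of muscle-led clusters were chosen after seeing the data. By Xist, sex was not balanced: at P2 all Insm1 controls were above the threshold, but Insm1 mutants 3 and 4 were not. In the P2 Tead1/2 line only control 2 and mutant 4 were above it. At P7 both Tead1/2 controls and mutant 3 were above it, as were Insm1 control 1 and mutants 2 and 3. A sex term therefore overlaps in part with genotype. Leaving out 1 library at a time gave 0 to 0 called members for P2 Insm1 and for the P2 difference, 0 to 3 for P2 Tead1/2, 3 to 10 for P7 Insm1, 7 to 16 for P7 Tead1/2, 0 to 1 for the P7 difference, 2 to 5 and 0 to 2 for the granule lineage (Insm1, Tead1/2), 4 to 15 and 4 to 13 for granule neuron-like cells, and 2 to 5 and 0 to 1 for progenitor-like cells. An arm left with 1 control was assumed to vary like the other groups. The P2 Tead1/2 count of 0 (0% of all genes) became 5 with DESeq2 (5.87% of genes), 7 with no low-count filter and 1 with the replicate block. The share of all genes called moves with the setting too, and it is not given for most settings here. These counts are therefore not read alone as a change of the members. The P7 Tead1/2 count of 14 became 9 without doublet-marked barcodes and 4 without muscle-led clusters as well, and the P7 Insm1 count of 8 became 1 in the latter setting. The P7 difference count of 0 became 1 with DESeq2 and 1 in progenitor-like cells alone. The granule lineage Insm1 count of 5 became 8 with no filter, 8 in neuron-like cells, 3 in progenitor-like cells and 0 in interneuron-like cells. The Tead1/2 count of 1 became 3 with no filter, 4 at resolution 0.5, 8 in neuron-like cells, 0 in interneuron-like cells and 2 for neuron-like minus interneuron-like. In progenitor-like cells of the Tead1/2 line it became 0 with no filter and 2 with the sex term. With classes redrawn at resolution 0.5 the count went from 8 to 3 (Insm1) and 8 to 4 (Tead1/2) in neuron-like cells and from 3 to 6 and 1 to 3 in progenitor-like cells. The cause was not tested.

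Sample numbers did not pair the samples: deviations of same-numbered samples correlated between −0.131 and 0.227 at P2. The replicate block (sample number at P2, dissection at P7) gave 0, 1 and 0 called members at P2 (Insm1, Tead1/2, difference) and 8, 13 and 0 over all P7 cells, with 5 and 1 for the granule lineage, 9 and 8 for neuron-like and 3 and 1 for progenitor-like cells.

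Some uncalled changes turned sign. Over single-library omissions the P2 Insm1 change ran from −0.132 to 0.096 for Pcdhac1, −0.288 to 0.0909 for Pcdhgc5 and −0.101 to 0.0564 for Pcdhgc4, and the P2 Tead1/2 change of Pcdhgc3 from −0.0104 to 0.122. At P7 it ran from −0.913 to 0.111 for Pcdhac1 (Insm1) and −0.116 to 0.0185 for Pcdhgc5 (Tead1/2). These 2 went to 0.0025 and 0.0607 without doublets and to 0.199 and 0.177 without muscle-led clusters as well. For the P7 difference, progenitor-like cells alone gave −1.31 for Pcdha10, −1.22 for Pcdhac2, −0.169 for Pcdhb4 and −0.0517 for Pcdhgc5, neuron-like cells gave 0.246 for Pcdhb7, and leaving out muscle-led clusters and doublets gave −0.0289 for Pcdhb4. At resolution 0.5 progenitor-like cells alone gave −0.724 for Pcdha10 and −0.779 for Pcdhac2, and neuron-like cells alone 0.0809 for Pcdhb7 and −0.0596 for Pcdhgc5. Against the granule lineage, interneuron-like cells gave 0.357 for Pcdha3 and 0.0739 for Pcdha10 in the Insm1 line and −0.044 for Pcdhgc4 in the Tead1/2 line, where neuron-like cells gave −0.00513. Depth limits the rare alpha members most: 9 of 14 were tested in the granule lineage and 3 of 14 in progenitor-like cells.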
